A study of Mus musculus with 8 samples.

Results

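Ribosomal protein (RP) genes encode the protein part of the ribosome and were followed here across the glia and neurons of the mouse hippocampus. A gene counted as a member when its symbol began with Rps or Rpl and a digit, or was Rplp0, Rplp1, Rplp2, Rpsa or Fau, and when it was neither a pseudogene symbol nor a ribosomal S6 kinase (Rps6k) gene. The rule gave 87 of the 32285 genes measured, 35 of the small (40S) and 52 of the large (60S) subunit side. Of these, 78 are ribosomal proteins proper, 8 are paralogs such as Rps27l and Rpl22l1, and Rps19bp1 only shares the name. Rpl10l had no UMI (unique molecular identifier, 1 counted RNA molecule) in any nucleus.

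Wild-type C57BL/6J dams, 8 weeks old in the labels, were given a folic acid (FA) diet of 2 mg/kg (MF) or 20 mg/kg (HF) from 2 weeks before mating through pregnancy and lactation. Hippocampi of their male pups were taken at postnatal day 21 (P21), and RNA (GEX) and open chromatin (ATAC) were read from the same nuclei. The libraries were numbered within each diet (MF1 and MF2, HF1 and HF2), and how many pups went into each is not given. The study calls the libraries of a diet biological replicates, and nothing in the labels says whether they came from different litters, so p-values measure only the spread between these libraries.

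The 4 libraries kept 11518 of 14297 barcodes, with a median of 6117 to 7053 UMIs per nucleus, and any pair of libraries shared 8 to 20 barcodes. Nuclei were clustered on RNA without the RP genes, and 8058 of them fell into 6 classes: 4184 excitatory neurons (EXC), 737 inhibitory neurons (INH), 1290 astrocytes (AST), 562 oligodendrocyte progenitors (OPC), 599 oligodendrocytes (ODC) and 686 microglia (MG). Another 745 fell into 4 small classes and 2715 (23.6%) into no class. Among the latter were unnamed clusters of 601 and 391 nuclei nearest to EXC by markers, with medians of 11473 and 12849 UMIs. Each name rests on marker genes among the 50 with the highest fold in the cluster, 15 for MG, 14 for ODC, 12 for AST, 11 for INH, 8 for OPC and 3 to 5 for the clusters of EXC. Clustering EXC again gave CA1 (553 nuclei) and CA3 (394) pyramidal cells, mature granule cells of the dentate gyrus (DG-M, 1513) and immature granule cells (DG-i, 987). In MF1, haemoglobin genes took 0.166 to 1.61% of the UMIs of each of the 6 classes (the most in OPC), against 0.0162 to 0.105% in the other libraries.

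A ribosome carries 1 copy of most of its proteins, so cells keep the RP genes at matched levels. Most RP messages begin with a C and a run of pyrimidines, the 5′ terminal oligopyrimidine (TOP) tract, through which mTOR signalling sets how much of the message is translated. Rplp0, Rplp1 and Rplp2 form the stalk that recruits elongation factors, Rpl3 lies near the peptidyl transferase centre, Rps6 is the substrate of the S6 kinases, and Fau makes ribosomal protein S30 fused to a ubiquitin-like protein. Mature RP messages sit in the cytoplasm, whereas this assay reads isolated nuclei.

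The starts of 12 members are shown because they carry, or lack, the sequence feature that RP genes are known for, and because most of them stand out in the comparisons that follow. Each line gives 60 bases of the RefSeq promoter on GRCm38 in the direction of transcription, 40 before the annotated start and 20 from it, and capitals mark the pyrimidine run at the start.
Fau (chr19:6057907-6057966, + strand): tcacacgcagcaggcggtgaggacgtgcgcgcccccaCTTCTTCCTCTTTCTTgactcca
Rps9 (chr7:3704001-3704060, + strand): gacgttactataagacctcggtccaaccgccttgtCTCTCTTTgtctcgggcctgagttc
Rpl27a (chr7:109519155-109519214, + strand): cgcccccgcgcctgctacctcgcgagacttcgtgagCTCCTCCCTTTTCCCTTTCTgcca
Rpl15 (chr14:18270967-18271026, − strand): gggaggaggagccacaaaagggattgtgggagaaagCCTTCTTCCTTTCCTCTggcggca
Rps6 (chr4:86857348-86857407, − strand): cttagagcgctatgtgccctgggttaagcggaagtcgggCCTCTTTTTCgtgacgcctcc
Rps27 (chr3:90213629-90213688, − strand): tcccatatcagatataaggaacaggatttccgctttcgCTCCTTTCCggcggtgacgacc
Rplp2 (chr7:141447611-141447670, + strand): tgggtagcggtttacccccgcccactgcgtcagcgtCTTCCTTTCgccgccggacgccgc
Rps27l (chr9:66946046-66946105, + strand): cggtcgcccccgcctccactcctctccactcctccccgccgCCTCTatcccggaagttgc
Rpl13 (chr8:123102310-123102369, + strand): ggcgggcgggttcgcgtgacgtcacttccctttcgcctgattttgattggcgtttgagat
Rplp0 (chr5:115559427-115559486, + strand): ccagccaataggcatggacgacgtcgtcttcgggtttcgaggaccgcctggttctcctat
Rpl10 (chrX:74270776-74270835, + strand): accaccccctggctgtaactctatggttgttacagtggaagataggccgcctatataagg
Rpsa (chr9:120127726-120127785, + strand): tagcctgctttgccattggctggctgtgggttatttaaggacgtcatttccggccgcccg

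Among the starts shown, the run was longest in Rpl27a (20 bases), followed by Rpl15 (17) and Fau (16). Rps27l, the paralog of Rps27, had 5 bases where Rps27 had 9. In the windows of Rpl13, Rplp0, Rpl10 and Rpsa no run of at least 5 pyrimidines starting with C was found within 5 bases of the annotated start, which says only that these letters are not at the start RefSeq annotates. RefSeq promoters were matched to 67 members, and 31 of them (46.3%) held such a TOP-like run, against 21.1% of 26958 other genes and 18.3% of all 32851 promoters in the table.

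Other motifs were searched on both strands from 250 bases before to 50 after the start. The ETS motif CCGGAAG was found in 26 of the 67 members (38.8%) and in 9.86% of other genes (8.86% of all promoters). The Sp1 motif GGGCGG was found in 42 members (62.7%) and in 38.1% of other genes (35.7% of all promoters). The YY1 motif AAGATGGC was found in 7 members (10.4%) and in 3.17% of other genes (2.75% of all promoters), and TATAAA in 7 members (10.4%) and in 15.7% of other genes (13.6% of all promoters). These shares were not tested and describe letters, not binding.

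MG had the highest share of UMIs on RP genes of the 10 cell types compared, followed by DG-i. In MG, RP genes took 4.45 and 3.07% of UMIs in the MF libraries (MF1, MF2) and 3.81 and 2.44% in the HF libraries (HF1, HF2). In EXC the shares were 1.34, 0.848, 1.15 and 0.624% in the same order of libraries. All 4 MG values lay above all 4 EXC values, and the MG share was 3.53-fold the EXC share on average, 3.30- to 3.91-fold by library. In nuclei of 2000 to 4000 UMIs, where most EXC were DG-i, MG had 3.43% and EXC 2.56%. OPC, the dividing progenitors of oligodendrocytes, also lay above EXC in every library, at 1.42, 1.05, 1.62 and 0.881% and 1.28-fold the EXC share.

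AST, INH and ODC had lower RP shares than EXC on average. The AST shares of 1.22, 0.803, 1.09 and 0.640% were below EXC in 3 of 4 libraries, and the mean difference of −0.0524 percentage points was no larger than its spread (SD 0.0552, n = 4). ODC shares were 1.10, 0.649, 0.983 and 0.519%, below EXC in every library by a mean of 0.181 points (SD 0.0591). INH shares were 0.941, 0.639, 0.922 and 0.492%, also below EXC in every library and 0.760-fold the EXC share. An exact two-sided sign-flip permutation test over the 4 libraries gave p = 0.125, the smallest it can give, for MG, OPC, ODC and INH (adjusted p = 0.156) and p = 0.25 for AST (adjusted p = 0.25). Taken as the mean of per-nucleus shares, the OPC minus EXC difference was −0.0445 points. Among nuclei of 2000 to 4000 UMIs, EXC had 2.56%, OPC 1.30%, ODC 1.08% and AST 0.936%, and INH had too few for a value.

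Within EXC the mean share ran from 0.641% in CA3 to 2.11% in DG-i, against 0.748% in INH to 3.44% in MG across classes. DG-i nuclei, which are young granule neurons, had shares of 3.11, 1.76, 2.32 and 1.24%. DG-M nuclei had 1.603, 1.03, 1.30 and 0.759%. CA1 shares were 0.739, 0.629, 0.806 and 0.442%, and CA3 shares 0.807, 0.565, 0.761 and 0.430%. EXC taken as 1 class is therefore a mixture whose level depends on how many granule and pyramidal nuclei it holds, and 737 EXC nuclei were in no named subtype.

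Placed in order of mean share, the types ran from MG through DG-i, OPC, DG-M, AST, ODC, INH and CA1 to CA3. Each type was above the next in all 4 libraries except for OPC above DG-M and CA1 above CA3, each in 3 of 4. The mean difference between neighbours was larger than its SD over libraries for MG and DG-i (1.33 points, SD 0.117), DG-i and OPC, DG-M and AST, AST and ODC (0.128, SD 0.0187), and INH and CA1. It was within its SD for OPC and DG-M (0.0680, SD 0.207), ODC and INH (0.0635, SD 0.0653), and CA1 and CA3 (0.0135, SD 0.0584).

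**Figure D1:**
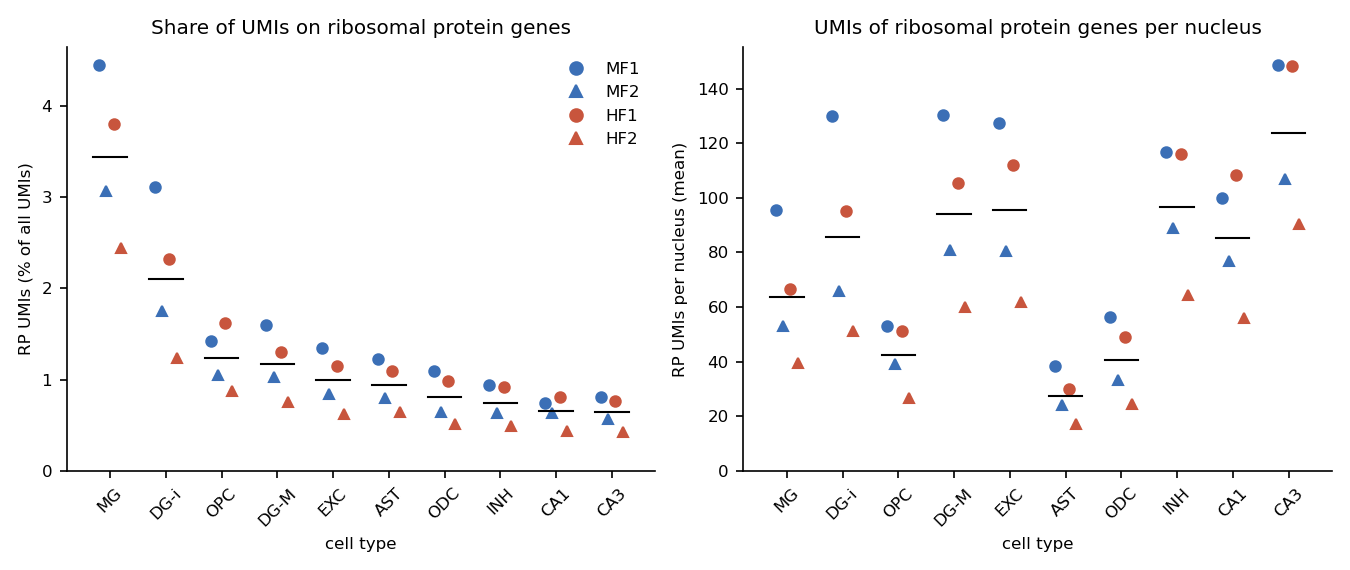
Left, share of all UMIs that fell on RP genes (%), and right, mean RP UMIs per nucleus, for each cell type on the horizontal axis. Points are the 4 libraries (colour for diet, shape for replicate) and bars their means. MG leads on the left (2.44 to 4.45%), CA3 on the right (90.4 to 149 UMIs), and circles (replicate 1) sit above triangles (replicate 2) of the same diet in every type.

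Counted per nucleus the order was different. CA3 nuclei held 149, 107, 148 and 90.4 RP UMIs on average, and EXC nuclei 127, 80.5, 112 and 61.8. MG nuclei held 95.5, 53.2, 66.5 and 39.4 RP UMIs, 0.660-fold the EXC value. AST had the fewest, at 38.3, 24.2, 29.95 and 17.1, or 0.286-fold the EXC value. INH nuclei, which had the lowest share of the 6 classes, carried about as many RP UMIs as EXC (117, 88.9, 116 and 64.6, or 1.03-fold, 3 of 4 libraries higher, exact sign-flip permutation p = 0.75). For AST, OPC, ODC and MG the number per nucleus was below EXC in every library (exact sign-flip permutation p = 0.125, adjusted p = 0.156).

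Depth also differed between the types: the median UMIs per nucleus were 1536 to 2086 in MG, 2524 to 2896 in AST, 2949 to 3465 in OPC, 7907 to 8530 in EXC and 10227 to 12249 in INH. Nuclei of 2000 to 4000 UMIs were therefore compared by themselves. At that depth the mean RP share was 3.43% in MG (81.5 RP UMIs per nucleus), 2.67% in DG-i (78.1), 1.89% in DG-M (62.6), 1.30% in OPC (39.9), 1.08% in ODC (35.6) and 0.936% in AST (26.5). MG and AST, both shallow, thus lay at the ends of the order, with MG above AST in each library (4.39 and 1.24% in MF1, 3.07 and 0.808% in MF2, 4.13 and 1.07% in HF1, 2.15 and 0.622% in HF2). INH, CA1 and CA3 had too few such nuclei for a value. In deeper nuclei INH had 0.900% and EXC 1.28% at 4000 to 8000 UMIs, and 0.782 and 0.904% at 8000 to 16000. At 16000 UMIs and over INH was above EXC in each library (0.855 and 0.781% in MF1, 0.567 and 0.544% in MF2, 0.836 and 0.801% in HF1, 0.442 and 0.435% in HF2). Mitochondrial RNA took 0.881 to 1.09% of UMIs in MG, 0.469 to 0.642% in AST and 0.293 to 0.370% in EXC, and abundant cytoplasmic messages 1.23 to 1.94% in MG and 0.594 to 0.998% in EXC, and their part in the RP shares was not tested.

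Within 1 type the share fell as UMIs per nucleus rose while the number of RP UMIs grew. DG-M went from 1.89% at 2000 to 4000 UMIs to 0.903% at 16000 UMIs and over, while its RP UMIs rose from 62.6 to 185 per nucleus. INH went from 0.900% at 4000 to 8000 UMIs to 0.675% at 16000 UMIs and over. RNA that is free in the suspension and enters every droplet can add to such counts, and its part was not tested. Nuclei of 1000 to 2000 UMIs held 19.5 RP UMIs in AST and 57.2 in MG. When every nucleus was thinned to 1000 UMIs (98 shallower nuclei were left out, 23 of them MG), 26.4 RP genes were detected per MG nucleus, 20.2 per DG-i, 11.8 per EXC, 11.6 per OPC, 8.96 per AST, 8.11 per ODC, 7.37 per INH and 6.46 per CA3. Without thinning the values were 38.2 in MG, 49.1 in EXC, 21.4 in AST and 56.5 in CA3.

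**Figure D2:**
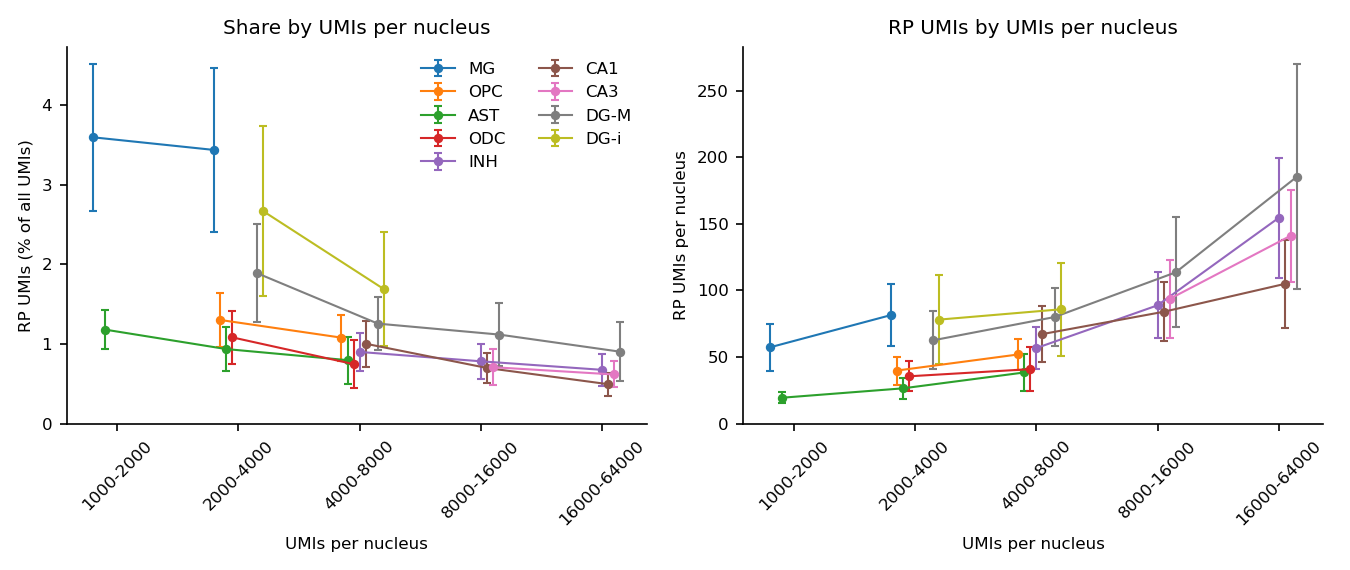
Mean RP share of UMIs (%, left) and mean RP UMIs per nucleus (right) in nuclei binned by UMIs per nucleus, 1 line per cell type. Points are means over 4 libraries and bars 1 SD; bins with fewer than 10 nuclei in a library are not drawn. At 2000 to 4000 UMIs, MG (3.43%) and DG-i (2.67%) lie above DG-M, OPC, ODC and AST (0.936%).

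Gene by gene, nearly all RP genes tested were higher in MG than in EXC. An edgeR quasi-likelihood fit on library sums of the 6 classes, with library as a covariate, tested 11605 genes, among them 83 members. Genes were called at a Benjamini-Hochberg FDR under 0.05 and at least 1.2-fold. In MG, 82 of the 83 were called higher (30.1% of all genes tested were called higher) and none lower (35.9% were), with a median log2 difference of 1.35 beside −0.11 over all genes. The other was Rps19bp1, a SIRT1 regulator that is no ribosomal protein (log2 difference 0.51, FDR = 0.226). The filter on low counts left out Rpl39l, Rpl3l, Rps27rt and Rpl10l. The fit scales the sums by TMM, which gave MG factors of 1.24 to 1.31 and EXC 0.832 to 1.01, so its differences are smaller than those of CPM (the UMIs of a gene scaled to the total of its sum). With library totals alone, 83 were higher (42.6% of all genes) with a median of 1.79 beside 0.32 over all genes. In nuclei of 2000 to 4000 UMIs, 15 of 82 were called higher in MG and 1 lower (20.3 and 29.8% of all genes), with a median of 0.16, and 624 of the 715 EXC nuclei of that depth were DG-i.

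The leading MG genes were Fau, Rps29 and Rps9, all of the small subunit. Fau stood at 1286, 893, 1051 and 703 CPM in MG and at 207, 147, 189 and 98.0 CPM in EXC (MF1, MF2, HF1, HF2), with a log2 difference of 2.19 ± 0.10 (SE, FDR = 3.75e-23, edgeR). Rps29 stood at 866, 492, 788 and 368 CPM in MG against 142, 92.5, 147 and 59.4 in EXC (2.10 ± 0.10, FDR = 2.75e-23). The lowest MG value of each of these genes was over its highest EXC value. Rps9 differed by 2.03 ± 0.10 (FDR = 2.27e-23).

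At the other end in MG were Rpl22l1, Rps19bp1 and Rps2. Rpl22l1, the paralog of Rpl22, stood at 126, 102, 136 and 54.4 CPM in MG and at 72.9, 52.5, 70.4 and 35.3 in EXC (log2 difference 0.43 ± 0.15, FDR = 0.0102, edgeR), with overlapping ranges, while Rpl22 itself differed by 1.53. Rpl22l1 was not called without MF1 (0.39, FDR = 0.0947), without the low-count filter (0.37, FDR = 0.0552) or in nuclei of 2000 to 4000 UMIs (−0.19). Rps2 differed by 0.57 ± 0.10 (FDR = 2.45e-06), but by −0.20 in nuclei of 2000 to 4000 UMIs (FDR = 0.380). Rpsa, also known as the laminin receptor, differed by 0.90 and Rpl3 by 0.68, less than the median of the 83. The shift was alike for both subunits, with a median of 1.38 for 34 members of the 40S side and 1.31 for 49 of the 60S side.

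In OPC the largest RP difference from EXC was in Rpl13. There, 12 of the 83 were called higher (22.9% of all genes were) and none lower (23.5% were), with a median of 0.17. Rpl13, a 60S protein, stood at 691, 463, 623 and 362 CPM in OPC and at 322, 195, 250 and 148 in EXC, all OPC values above all EXC values, with a log2 difference of 1.08 ± 0.09 (FDR = 1.19e-14, edgeR). It was 0.20 and not called in nuclei of 2000 to 4000 UMIs (FDR = 0.309). Rpl13 took 4.31% of RP UMIs in OPC and 2.31% in EXC. Rps27l was next with 0.93 ± 0.30 (FDR = 0.00983), on 5 to 15 UMIs per library, and was not called without MF2 (0.62, FDR = 0.149), without HF1 (0.88, FDR = 0.0502) or in nuclei of 2000 to 4000 UMIs (−0.0395). Rpl18 followed with 0.66 ± 0.12 (FDR = 8.63e-06), but was −0.48 in nuclei of 2000 to 4000 UMIs and not called under 0.2% mitochondrial UMIs (0.50, FDR = 0.220). Rpl13 overlaps a gene of the same strand, Gm20388, in the annotation, so reads of the overlap could be split or lost, and it holds 1 small nucleolar RNA in its introns. The count of 12 was unstable: it was 3 without MF2 (18.9% of all genes were higher), 5 without HF1 (20.9%), 26 without MF1 (20.7%), 51 with library totals (29.1%) and 5 when nuclei over the doublet score were left out (21.1%). Leaving out nuclei over the doublet score also gave 3 lower. At higher clustering resolution 3 were higher and 8 lower, with a median of −0.01. Shares of all genes for these last counts are not given here. In nuclei of 2000 to 4000 UMIs 0 of 82 were higher (18.1%) and 77 lower (17.0%).

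In the fit over nuclei of all depths, INH lay below EXC across the RP genes. In nuclei of 16000 UMIs and over, the mean RP share was 0.675% in INH and 0.640% in EXC. There, 78 of the 83 were called lower (21.9% of all genes were) and none higher (19.7% were), with a median of −0.44 beside −0.04 over all genes. Under 0.2% mitochondrial UMIs the count was 30 of 79 (19.3% of all genes). Rplp0, the base of the stalk, differed most: 47.5, 35.7, 52.3 and 27.6 CPM in INH against 119, 49.96, 80.8 and 44.5 in EXC (log2 difference −0.86 ± 0.11, FDR = 3.50e-09, edgeR). Rpl7 (−0.67) and Rps19 (−0.60) followed. Rps27l (−0.15), Rpl7l1 (−0.17) and Rpl22l1 (−0.20), 3 of the paralogs, were nearest to EXC and were not called.

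AST and ODC had smaller median RP differences from EXC than MG and INH. In AST, 18 of the 83 were called lower (31.6% of all genes were) and 1 higher (31.2% of all genes were), with a median of −0.13. The AST count lower was 8 without HF1 (28.9% of all genes), 7 with library totals (29.3%), 40 at higher clustering resolution (31.8%) and 1 under 0.2% mitochondrial UMIs (28.4%), where 4 were higher (25.1%). In ODC, 32 were called lower (32.9% of all genes) and 1 higher (28.7% of all genes), with a median of −0.25, and the count lower was 64 at higher clustering resolution (33.5%) and 9 under 0.2% mitochondrial UMIs (32.96%). In nuclei of 2000 to 4000 UMIs, 80 of 82 were lower in AST (26.8% of all genes) and 78 in ODC (26.4%). The gene called higher was Rps27l in both classes, at 23.4, 14.4, 18.1 and 20.1 CPM in AST and 18.4, 22.8, 17.5 and 18.8 CPM in ODC against 12.9, 7.33, 12.95 and 5.73 in EXC. Rps27l, known as a p53 target, rested on few molecules (11 to 26 UMIs per AST library and 10 to 18 per ODC library), with log2 differences of 0.88 ± 0.25 in AST (FDR = 0.00180, edgeR) and 0.96 ± 0.27 in ODC (FDR = 0.00166). Neither was called in nuclei of 2000 to 4000 UMIs, at 0.025 in AST (FDR = 0.965) and −0.75 in ODC (FDR = 0.258).

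The lowest RP genes of these classes were Rpl4 in AST (−0.55 ± 0.11, FDR = 4.66e-05, edgeR), followed by Rpl7l1 (−0.48) and Rps3 (−0.47), and Rpl3 in ODC (−0.64 ± 0.12, FDR = 4.76e-06), followed by Rpl30 (−0.56) and Rpl5 (−0.55). In AST Rpl7l1 was not called without MF1 (FDR = 0.0632), HF1 (FDR = 0.0520) or HF2 (FDR = 0.120), and under 0.2% mitochondrial UMIs the calls of Rpl4 (−0.29, FDR = 0.460) and Rps3 (−0.25, FDR = 0.460) in AST and Rpl5 in ODC (−0.32, FDR = 0.171) were lost. Rpl3 stood at 81.7, 68.3, 110 and 64.3 CPM in ODC against 170, 120, 152 and 87.0 in EXC, ranges that overlapped across libraries but not within any of them. ODC, the cells that follow OPC in the lineage, were compared with OPC. Of the 83, none was called higher (20.9% of all genes were). For 53 the level was called lower (27.3% of all genes), with a median of −0.38 over the 83. The count was 26 without HF1, 30 without MF2, 32 without HF2 and 8 of 82 in nuclei of 2000 to 4000 UMIs (23.9, 23.3, 24.3 and 23.0% of all genes). Rpl13 was again first (−1.45 ± 0.11, FDR = 3.00e-16), at 228, 132, 201 and 123 CPM in ODC, followed by Rpl18 (−0.76) and Rpl10a (−0.76), which were not called under 0.2% mitochondrial UMIs (FDR = 0.393 and 0.214). Committed progenitors between OPC and ODC (COP, 358 nuclei) had RP shares of 1.37, 0.843, 1.35 and 0.667%, between OPC and ODC in each library over nuclei of all depths. At 2000 to 4000 UMIs the mean share was 1.27% in COP, 1.30% in OPC and 1.08% in ODC. At that depth COP was above OPC in MF1 (1.62 and 1.47%) and HF2 (0.926 and 0.895%). It was below OPC in MF2 (0.979 and 1.17%) and HF1 (1.57 and 1.68%).

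MG was the highest class for each of the members described next by their role. Rps6, the S6 kinase substrate, stood at 115, 64.7, 91.6 and 50.7 CPM in EXC, 391, 251.2, 293 and 184 in MG and 75.7, 56.4, 73.8 and 39.0 in INH (MF1, MF2, HF1, HF2), and its log2 difference from EXC was −0.43 in INH, −0.24 in AST, −0.03 in OPC, −0.52 in ODC and 1.38 in MG. Among the stalk proteins, Rplp1 differed by −0.53 in INH, −0.20 in AST, 0.15 in OPC, −0.30 in ODC and 1.66 in MG, and Rplp2 by −0.46 in INH, −0.11 in AST, 0.10 in OPC, −0.34 in ODC and 1.47 in MG. For Rpl10, encoded on the X chromosome, the differences were −0.48 in INH, −0.26 in AST, 0.13 in OPC, −0.50 in ODC and 1.63 in MG.

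Rps24 (1.55 in MG and −0.40 in INH), Rps27 (1.67 and −0.47), Rps4x (1.76 and −0.46), Rpl36al (1.39 and −0.31) and Rpl39 (1.82 and −0.48) were each called higher in MG and lower in INH than in EXC. In AST and ODC these genes lay between −0.38 (Rps4x in ODC) and 0.16 (Rpl39 in AST). Rpl39l, the paralog of Rpl39, was too low to test, with 6 UMIs in MG of MF1 and none in the other MG libraries.

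**Figure D3:**
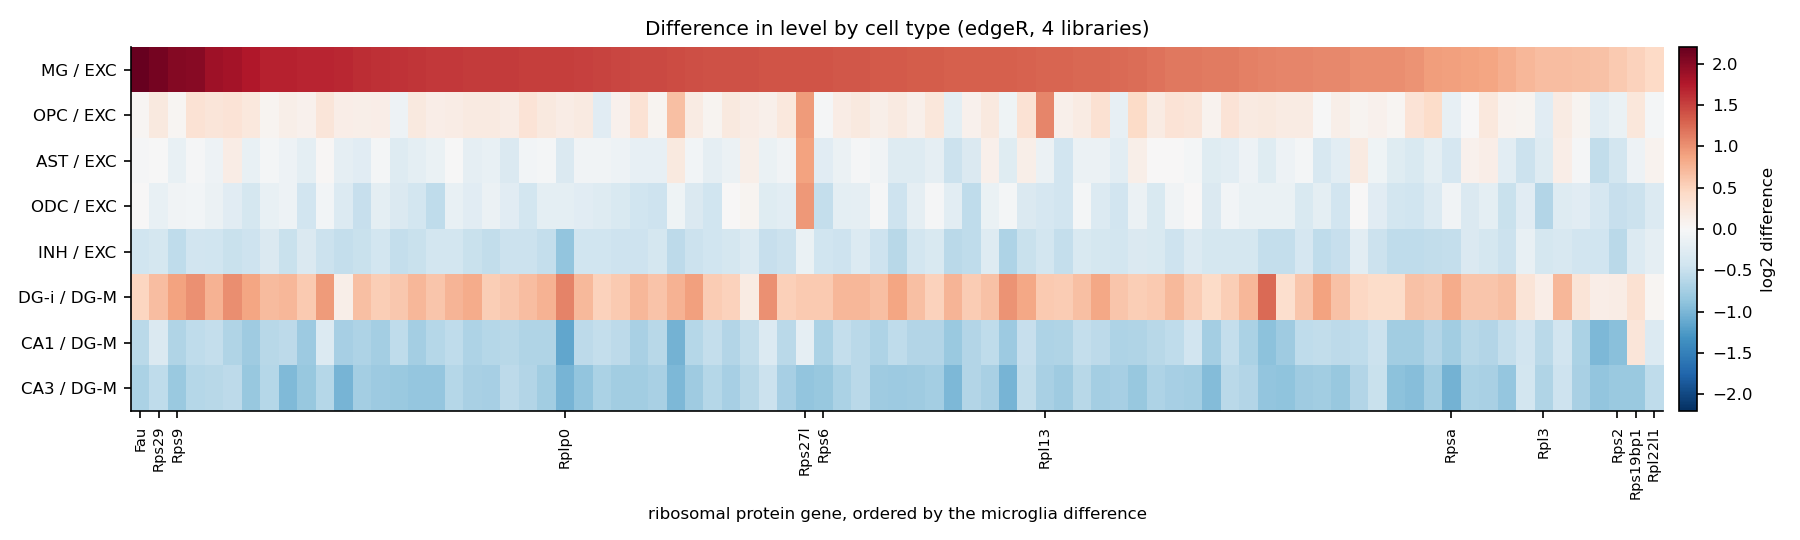
Log2 difference of each RP gene in the library-sum fits (colour), for classes against EXC and for excitatory subtypes against DG-M (rows), with genes in columns ordered by the MG difference and some of those described labelled. MG and DG-i are positive throughout, INH is negative throughout, CA1 and CA3 are negative but for Rps19bp1 in CA1 (0.27), and Rpl13 in OPC (1.08) and Rps27l in OPC, AST and ODC (0.88 to 0.96) stand out from their rows.

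The subtypes of EXC were then compared in a fit of their own, with 84 members among 12008 genes. Against DG-M, 75 of the 84 were called higher and none lower in DG-i (22.1% of all genes were higher and 21.7% lower) with a median log2 difference of 0.63 (18 of 80 higher, beside 14.7% of all genes, and 0.38 in nuclei of 2000 to 4000 UMIs), 81 lower and none higher in CA1 (22.9% of all genes were lower and 22.2% higher) with a median of −0.62, and 84 lower in CA3 (22.9% of all genes) with a median of −0.74. Rplp0 (1.09 ± 0.11, FDR = 1.43e-11, edgeR) and Rpl39 (1.03) were among the highest in DG-i. Rplp1 (0.14), Rpl3 (0.14) and Rpl22l1 (0.04) were among the 9 not called there. Rplp0 was also the lowest gene in CA1 (−1.14 ± 0.13, FDR = 9.99e-10). It stood at 400, 168, 204 and 112 CPM in DG-i, 139, 59.98, 96.4 and 59.1 in DG-M, and 46.6, 24.6, 41.2 and 26.5 in CA1.

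Because EXC is a mixture, each other class was also set against each subtype in 1 fit of 9 types (13462 genes, 84 members), a fit added after the EXC results were seen. No RP gene was called between INH and pyramidal cells: 0 of 84 in either direction against CA1 (21.3% of all genes were higher and 19.1% lower) and 0 against CA3 (16.6 and 17.4%), with medians of −0.03 and 0.07 (3 and 5 of 84 at an unadjusted p under 0.05, edgeR). Against DG-M, 82 of 84 were lower in INH (23.5% of all genes) and against DG-i 83 (19.2%). With library totals in place of TMM, 21 of 84 were higher in INH than in CA1 (32.8% of all genes were) and 23 than in CA3 (24.1%), where the median of all genes shifted to 0.25 and 0.15.

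AST and ODC were set against the pyramidal types next. Against CA1, 39 of 84 RP genes were higher in AST (30.8% of all genes) and 23 in ODC (27.5%), with 1 lower in ODC (29.0%). Against CA3 the numbers were 67 in AST (30.3%) and 40 in ODC (27.3%), with none lower in either (29.8 and 30.3%). Against DG-M, 55 were lower in AST (29.4%) and 59 in ODC (30.6%), and 1 was higher in each, Rps27l (30.6% and 27.5% of all genes were higher). In ODC, 23 of 84 against CA1 is near the share of all genes. With library totals, 76 of 84 were higher than CA1 in AST (39.3% of all genes) and 39 in ODC (31.7%).

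OPC lay nearer to DG-M than to the pyramidal types. Of 84 RP genes, 74 were higher in OPC than in CA1 (24.7% of all genes) and 77 than in CA3 (23.2%), while against DG-M 3 were higher (23.4%) and 9 lower (21.9%). Rpl13 remained higher in OPC than in DG-M by 0.85 ± 0.09 (FDR = 1.18e-12, edgeR) and than in DG-i by 0.34 ± 0.09 (FDR = 0.00224), the single RP gene higher in OPC than in DG-i (18.1% of all genes were higher), where 76 were lower (16%). With library totals 0 RP genes, and so not Rpl13, were called higher in OPC than in DG-i (15.1% of all genes were). In that setting 77 were lower (20.8%). MG stood above every subtype: 83 of 84 were higher than in CA1 (29.6%), 84 than in CA3 (29.3%), 80 than in DG-M (28.4%) and 64 than in DG-i (25.9%), and none was lower in any of these (29.8 to 33.3% of all genes were).

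MG and DG-i, the types with the highest RP shares, were also compared gene by gene. The median log2 difference of MG from DG-i was 0.55. Fau (1.57 ± 0.11, FDR = 3.50e-20), Rps29 (1.39) and Rplp1 (1.22) were highest in MG, and Rpl38 (−0.08 ± 0.13, FDR = 0.663) and Rpsa (−0.07) were not called in the edgeR fit. Rpsa stood at 409 CPM in MG and 404 CPM in DG-i on average, and at 163 CPM in EXC.

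No RP gene was called between diets in any cell type by edgeR without a replicate block. A fit for each of the 10 types tested 82 to 84 members, and 0 were called between HF and MF in every type (0% of all genes tested were called in EXC, INH, AST, ODC, MG, CA1, CA3 and DG-i, 0.0550% in OPC and 0.0332% in DG-M). At an unadjusted p under 0.05, edgeR found 5 RP genes in all: 1 each in OPC, CA1 and DG-M and 2 in DG-i. Of all genes tested, 166 of 7276 in OPC, 226 of 10344 in CA1, 219 of 12064 in DG-M and 244 of 10143 in DG-i were under that level. DESeq2 called 0 as well and found 1 at that level, in DG-i (44 of 19403 over all genes). The median log2 difference of the RP genes was below 0 in 9 types, from −0.05 in CA1 to −0.40 in DG-i, with −0.24 in EXC and −0.30 in MG, and was 0.06 in OPC. In the simulated test of this design, changes of 2-fold were recovered for 56.7% of genes in EXC, 22.4% in AST and 14.9% in MG. Changes of 1.5-fold were recovered for 16.4% in EXC, 1.49% in AST and 1.49% in MG.

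The RP share of HF and MF libraries overlapped in every type. In EXC the MF mean was 1.10% ± 0.350 (SD, n = 2) and the HF mean 0.890% ± 0.375 (n = 2), and in MG the means were 3.76% ± 0.974 and 3.12% ± 0.968. The exact two-sided permutation p over the 4 libraries was 0.667 in 8 types and 1 in OPC and CA1 (adjusted p = 0.833 and 1), and 2 libraries against 2 cannot give less than 0.333. Replicate 1 was above replicate 2 of its own diet in all 10 types, 1.17- to 1.77-fold in MF and 1.56- to 1.89-fold in HF. Of the same-numbered libraries, HF2 was below MF2 in all 10 types (0.703- to 0.838-fold) and HF1 below MF1 in 8 (0.747- to 0.980-fold), with OPC (1.14-fold) and CA1 (1.09-fold) above.

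Gene by gene, replicates also separated more RP genes than diets did. Both replicate 2 libraries were below both replicate 1 libraries for 84 of 84 RP genes in EXC (41.8% of all genes tested) and for 75 of 82 in MG (20.7%), whereas both HF libraries were below both MF libraries for 0 of 84 in EXC (15.2% of all genes) and 3 of 82 in MG (12.9%). Abundant cytoplasmic messages such as Actb and Fth1 followed the replicate, with 0.998, 0.744, 0.980 and 0.594% of EXC UMIs in MF1, MF2, HF1 and HF2. Mitochondrial RNA did so in HF (0.370 and 0.293% in EXC) and not in MF (0.345 and 0.363%). What set the replicates apart was not tested.

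The RP genes with the smallest unadjusted p were mostly lower in HF, but each missed the threshold (FDR over 0.99, edgeR without a replicate block). Rpl22l1 in OPC stood at 85.7 and 82.5 CPM in MF and 50.6 and 33.4 CPM in HF (log2 difference −0.96 ± 0.33, unadjusted p = 0.00738), groups that did not overlap. Both HF libraries were below both MF libraries for 1 of 82 RP genes in OPC and for 15.7% of all genes tested. Rplp0 in DG-i stood at 400 and 168 CPM in MF and 204 and 112 CPM in HF (−0.79 ± 0.32, unadjusted p = 0.0219). Rps19bp1 in CA1, with 11 to 32 UMIs per library, was higher in HF (1.08 ± 0.44, unadjusted p = 0.0237). In the other types the smallest unadjusted p lay between 0.0466 (Rpl18 in DG-M, −0.48) and 0.154 (Rps7 in EXC, −0.37), with Rps16 at −0.63 in ODC and −0.46 in AST, Rpl22 at −0.39 in INH, Rpl26 at −0.54 in MG and Rps6 at −0.57 in CA3. Without HF1, 4 RP genes were called lower in HF in DG-i (Rplp0 among them, −1.22, FDR = 0.0303), 2 in INH, 2 in CA1 and 1 in EXC. Of all genes, 0.147% were called lower there in DG-i, 0.102% in INH, 0.0932% in CA1 and 0.0578% in EXC, and the HF library that remains is assumed to vary like those of MF. Without MF1 the median was above 0 in all 10 types.

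Whether the diet difference in each other class differed from that in EXC was tested as an interaction. No RP gene was called for any class (0% of all genes in INH, AST, OPC and ODC and 0.00862% in MG). The median difference of the diet effect from that of EXC was 0.28 in OPC, where 10 of 83 had an unadjusted p under 0.05 by edgeR (487 of all 11605 genes did) and 10 of 86 by DESeq2 (341 of 25232), and −0.09 to 0.10 in the other classes, with 1 such gene in ODC and 0 in INH, AST and MG by both tools.

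**Figure D4:**
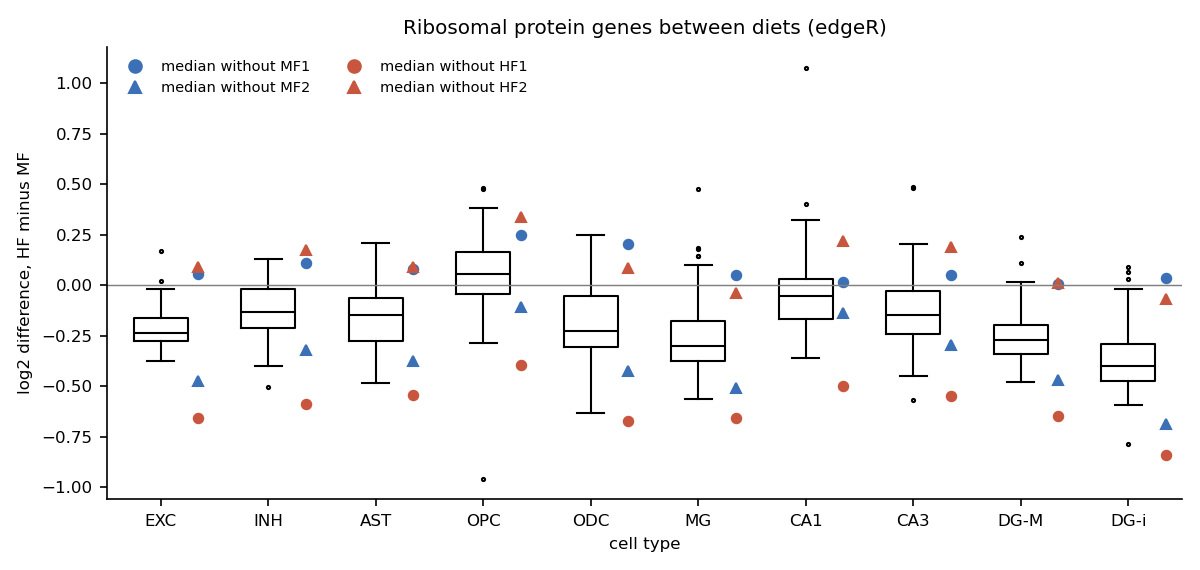
Log2 difference between HF and MF of the RP genes tested in each cell type (boxes show the median and quartiles, whiskers reach 1.5 times the interquartile range, and dots lie beyond). Coloured points are the medians with 1 library left out; without HF1 they run from −0.84 to −0.39 and without MF1 from 0.01 to 0.25.

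Most RP genes had a region of open chromatin at their start. A region of open chromatin with a peak in all 4 libraries lay within 500 bases of the gene start for 80 of 87 members (92.0%), against 63.2% of 21897 protein-coding genes, and within 2000 bases for 84. Rpl10l, Rpl39l and Rpl3l had none, and each also had almost no RNA (0, 13 and 47 UMIs over all nuclei). The 80 regions had a median width of 908 bases. They took 0.299% ± 0.0172 (SD, n = 4) of all counts in shared regions in EXC, 0.343% ± 0.0182 in INH, 0.400% ± 0.0160 in AST, 0.406% ± 0.0134 in OPC, 0.432% ± 0.0154 in ODC and 0.533% ± 0.0123 in MG.

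The order of this accessibility was not that of the RNA. MG was highest in both, but EXC was lowest at the promoters and above AST, ODC and INH in the RNA share. The class differences at RP promoters moved with those at other promoters, whose share of counts was 30.5% in EXC, 37.6% in INH, 42.9% in AST, 43.6% in OPC, 44.1% in ODC and 50.4% in MG. Counts per RP promoter were 1.54, 1.43, 1.46, 1.46, 1.53 and 1.66 times those per other promoter in the same order of classes. Replicate 1 was 0.955- to 1.05-fold replicate 2 in MF and 1.03- to 1.13-fold in HF at RP promoters, against 1.17-fold or more in the RNA share.

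**Figure D5:**
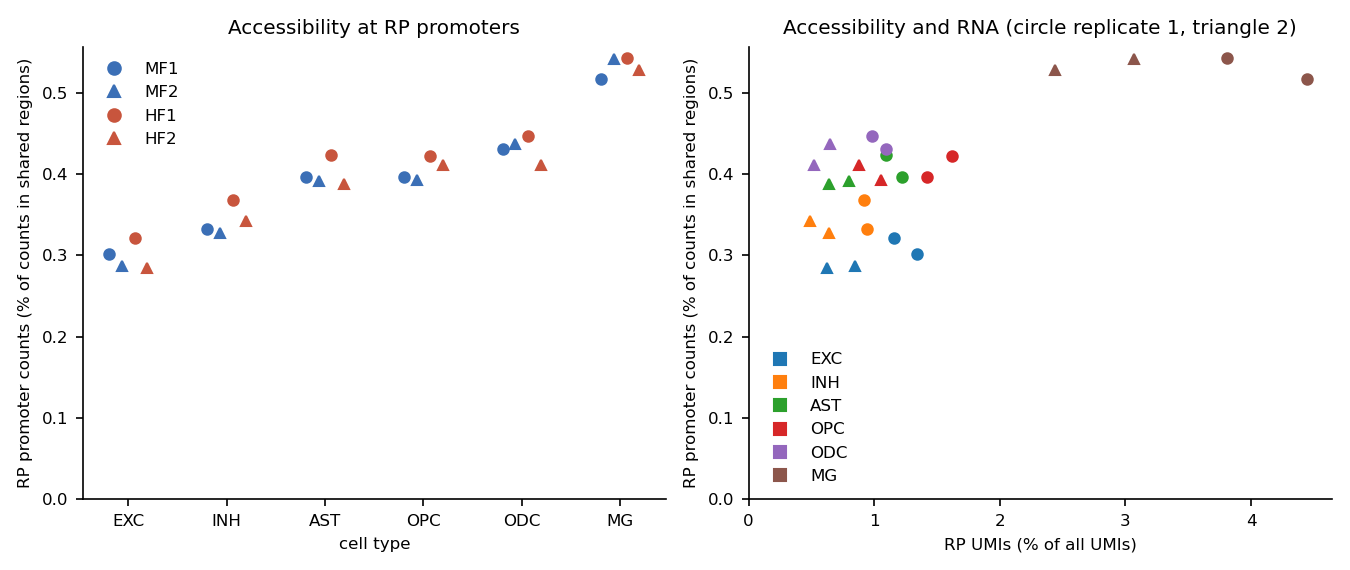
Left, share of ATAC counts in shared regions that fell on RP promoter regions (%) by class, with 1 point per library. Right, the same values against the RP share of UMIs (%) of the same class and library, coloured by class. MG lies apart on both axes, and within a class the points spread along the RNA axis far more than along the promoter axis.

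Region by region, against EXC, 79 RP promoter regions were tested among 98021. MG had 72 called higher (19.2% of all regions were, and 54.0% of 12099 other promoters) and none lower (63.8% and 26.6%). AST had 54 higher (27.3% of all regions, 55.9% of other promoters), ODC 51 (23.5%, 48.8%) and OPC 37 (22.1%, 45.4%), each with 1 lower (46.5, 46.3 and 43.0% of all regions). INH had none higher (15.6%, 17.1%) and 1 lower (27.7%). Without HF1 the counts fell to 29 in AST, 24 in ODC and 17 in OPC, and the shares of other promoters to 41.8, 35.02 and 34.6%. With library totals AST had 34 higher (23.7% of all regions) and INH 10 higher (21.8%) and 1 lower. For library totals the shares of other promoters, and of all regions lower in INH, are not given here.

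The single regions that stood out were Rps27l and Rpl41. The Rps27l promoter region (chr9:66945560-66946500, mm10), around the Rps27l start printed before, was the most raised in MG (log2 difference 1.39 ± 0.11, FDR = 3.07e-33, edgeR), ODC (1.02 ± 0.12) and INH (0.20, FDR = 0.147, not called). It held 235, 135, 149 and 155 counts in MG (MF1, MF2, HF1, HF2) and 676, 649, 746 and 633 in the far deeper EXC sums. Rps27l RNA was also called higher in MG, ODC, OPC and AST, though not in OPC, AST or ODC in nuclei of 2000 to 4000 UMIs. In MG that RNA rested on 24, 2, 12 and 8 UMIs (MF1, MF2, HF1, HF2). The region of Rpl27a (chr7:109518660-109519572) was the most raised in AST (0.91 ± 0.10, FDR = 2.56e-19) and OPC (0.76 ± 0.11). Rpl41 (chr10:128548777-128549669), the gene of the shortest ribosomal protein, was the region lower in each of INH (−0.47 ± 0.12), OPC (−0.44), ODC (−0.45) and AST (−0.30, FDR = 0.0225), and Rpl37a the lowest in MG (−0.09, FDR = 0.612).

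For single genes, RNA and promoter are given side by side. The Rpl13 promoter region differed by 0.32 ± 0.13 in OPC (FDR = 0.0243, edgeR), less than in AST (0.60), ODC (0.61) and MG (0.84), although Rpl13 RNA was highest against EXC in OPC after MG. The Fau promoter region differed by 0.75 ± 0.11 in MG and by 0.63 ± 0.10 in AST, where the log2 difference of Fau RNA from EXC was −0.03 and not called. No RP promoter region was called between diets in any class (of all regions 0.00132% were called in EXC, 0.00764% in MG, 0.00263% in ODC and 0% for the rest), with 0 in EXC, 7 in INH, 3 in AST, 4 in OPC, 2 in ODC and 3 in MG at an unadjusted p under 0.05 by edgeR, and no other tool was run on the regions. Of all regions, 5282 of 151294 in EXC, 3680 of 91503 in INH, 1665 of 53070 in AST, 1574 of 38710 in OPC, 1567 of 38016 in ODC and 1100 of 26165 in MG were under that level.

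Genes that work with the ribosome were compared by lists. Against EXC, of all genes tested, 30.1% were higher and 35.9% lower in MG, 19.7 and 21.9% in INH, 31.2 and 31.6% in AST, 22.9 and 23.5% in OPC, and 28.7 and 32.9% in ODC, and each list's counts stand beside these. Of translation factors, 24 of 44 were higher and 3 lower in MG with a median of 0.46, led by Eef1a1, which brings tRNA to the ribosome (1064, 641, 935 and 536 CPM, log2 difference 1.10, FDR = 7.77e-15, edgeR), and Gspt1, a release factor (1.09). In INH 13 of 44 were lower and none higher (median −0.22), among them Eef1a1 (−0.52). In AST (3 higher, 10 lower), ODC (5 and 8) and OPC (1 and 1) the medians lay between −0.12 and 0.00. Ribosome-associated genes were higher for 8 of 11 in MG, led by Tpt1 (1.66) and Rack1, a scaffold on the 40S subunit (1.58), and lower for 8 of 11 in INH, with Rack1 at −0.50. They were lower for 2 and higher for 1 of 11 in AST, lower for 3 and higher for none in ODC, and higher for 2 and lower for 1 in OPC.

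Of ribosome biogenesis genes, 8 of 34 were higher and 8 lower in MG. In AST 14 of 34 were lower and 1 higher (median −0.43) and in ODC 12 were lower and 3 higher (−0.35), while INH (2 higher, 4 lower) and OPC (1 and 4) had few. Rrs1 was higher in AST (2.08, FDR = 8.29e-10, edgeR) and Heatr1 in MG (1.13), and Nob1 was lower in ODC (−1.42). Mitochondrial ribosomal protein genes, made for the ribosomes of another compartment, were higher for 13 of 75 and lower for 6 in MG (median 0.16), both under the shares of all genes there, and higher for 23 and lower for 6 in AST (0.18). In ODC 10 were higher and 9 lower, in INH 2 and 9, and in OPC 3 and 5. Of abundant cytoplasmic messages, 13 of 30 were higher and 6 lower in MG (median 0.19), 1 and 17 in INH (−0.29), 8 and 8 in AST, 6 and 14 in ODC and 4 and 6 in OPC. No gene of these lists was compared with the RP genes by a test.

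The genes whose level across the 24 sums (6 classes in 4 libraries) was most like the summed RP level, among 10390 genes, were Tmsb4x (Pearson r = 0.984), Eef1a1 (0.984), Tpt1 (0.982), Actb (0.975) and Rack1 (0.974). The points share their libraries and the depth of their class, so r is a description only.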

How the data were processed

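Gene expression and open chromatin were measured in the same hippocampal nuclei of 4 libraries, 2 per diet. Per the labels the authors ran Cell Ranger ARC 2.0.1 on mm10 and Seurat, and deposited raw counts: UMI counts of each gene and ATAC counts of each peak in every nucleus; every library had a peak list of its own. A barcode was kept if it had 500 to 7000 genes, if mitochondrial UMIs were under 2%, and if it had 1000 to 70000 ATAC counts; nucleosome and TSS filters were not used here. Automatic doublet thresholds marked 0 to 22.0% of nuclei, so a Scrublet score of 0.05 was used. Clusters with a median score over 0.05 were called mixed and left out of all classes. Leaving out single nuclei over 0.05 was an alternative. Clusters were built with scanpy 1.11.5 on 3000 variable genes without RP genes, and named where 3 markers were in the top 50 genes. These names are rebuilt and may differ from the study's.

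Counts were summed per library and type (at least 10 nuclei). edgeR 4.0.16 (quasi-likelihood, TMM, filterByExpr) gave log2 differences; SE is the difference divided by the root of F. DESeq2 1.42.0 was an alternative. Peaks of the 4 libraries were merged, and regions with a peak in every library and within 500 bases of a GENCODE M21 start were taken as promoters. Each fit was tested on simulated data. Named genes were the 3 highest and lowest members per contrast, the 2 of smallest p per diet contrast, a fixed list of members by role, and for other lists and promoters the extremes; a result of the rule may be not reported here. The members and gene lists were chosen with earlier results of these data known. The 9-type fit, the doublet score, the minimum of nuclei and the comparison with other promoters were chosen after seeing the data. Intervals and tests cover the spread between libraries only.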

Additional observations from a re-analysis of the deposited data

How the results depend on the processing

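Counts and shares against EXC moved with the choice of nuclei, the scaling and the neurons they were set against. In nuclei of 2000 to 4000 UMIs, where EXC was mostly DG-i, the lower counts became 80 in AST, 78 in ODC and 8 for ODC against OPC, and the higher counts 0 in OPC, 15 in MG and 18 in DG-i. The share difference became −1.26 in OPC and its diet difference −0.0304. Under 0.2% mitochondrial UMIs the counts were 30 lower in INH, 1 in AST, 9 in ODC and 8 for ODC against OPC, and 4 higher in OPC, with fewer nuclei in each sum, and the AST share difference was 0.0552. With higher clustering resolution they were 40 lower in AST and 64 in ODC, and 3 higher and 8 lower in OPC. Library totals gave 7 lower in AST, 51 higher in OPC, and 34 higher promoters in AST and 10 in INH. Without a low-count filter 5 were higher in OPC and 32 lower for ODC against OPC. Without nuclei over the doublet score 5 were higher and 3 lower in OPC. No share of all genes is given here for the counts without the filter, the lower counts in OPC, or OPC at higher resolution. The same holds for OPC and for ODC against OPC under 0.2% mitochondrial UMIs. As the mean of per-nucleus shares the OPC difference was −0.0445. In the added 9-type fit the lower counts were 0 in INH against CA1 and CA3 (19.1 and 17.4% of all genes). Against CA1, CA3, DG-M and DG-i they were 0, 0, 55 and 79 in AST (28.8, 29.8, 29.4 and 26.4% of all genes). In ODC they were 1, 0, 59 and 81 in the same order (29.0, 30.3, 30.6 and 28.7%). The higher counts in OPC were 74, 77, 3 and 1 (24.7, 23.2, 23.4 and 18.1%). Except where a value above shows it, the cause was not tested.

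Leaving out 1 library moved the diet difference in share over −0.471 to 0.0592 in EXC, −0.298 to 0.132 in INH, −0.373 to 0.0793 in AST, −0.355 to 0.382 in OPC, −0.353 to 0.111 in ODC, −1.32 to 0.0547 in MG, −0.242 to 0.122 in CA1, −0.256 to 0.0750 in CA3, −1.33 to 0.0242 in DG-i and −0.572 to −0.00117 in DG-M. Diet calls ran from 0 to 1 in EXC, 0 to 2 in INH and CA1 and 0 to 4 in DG-i. Calls against EXC ran from 8 to 17 in AST (lower), 3 to 26 in OPC (higher) and 23 to 28 in ODC (lower), and from 26 to 55 for ODC against OPC (lower). In the fit of all 4 libraries 31.6, 22.9, 32.9 and 27.3% of all genes were called in these directions, in the same order. Promoter calls ran from 1 to 6 in INH (lower), and from 29 to 63 in AST, 17 to 44 in OPC and 24 to 53 in ODC (higher). With all 4 libraries 27.7, 27.3, 22.1 and 23.5% of all regions were called in these directions, in the same order.

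Some single genes changed sign, among them called ones. In nuclei of 2000 to 4000 UMIs the log2 differences were −0.74 for Rpl36 and −0.98 for Rpl18 in AST, −0.48 for Rpl18 and −0.0395 for Rps27l in OPC, −0.70 for Fau, −0.50 for Rpl36al and −0.75 for Rps27l in ODC, −0.19 for Rpl22l1 and −0.20 for Rps2 in MG, and −0.71 for Rps27l for ODC against OPC. Fau in ODC was −0.016 with library totals, −0.025 without the filter, −0.0089 by DESeq2, −0.023 without nuclei over the doublet score and −0.10 at higher resolution, where Rpl36al in ODC was −0.056. For ODC against OPC, Rps27l was −0.16 with library totals, −0.011 without nuclei over the doublet score and −0.079 at higher resolution, Rpl7 −0.13 with library totals and −0.0075 at higher resolution, and Rpsa −0.099 with library totals. Between diets in AST, under 0.2% mitochondrial UMIs, Rps16 was 0.41 and Rpl9 0.14. With 1 library left out, Rps27l in INH ran from −0.30 to 0.11, Fau in ODC from −0.029 to 0.13, Rpl36al in ODC from −0.020 to 0.16, Rps27l from −0.15 to 0.38 and Rpsa from −0.082 to 0.22 for ODC against OPC, and between diets Rpl9 in AST from −0.87 to 0.065 and Rplp1 in CA1 from −0.97 to 0.043. No value could be had for INH, CA1 and CA3 at 2000 to 4000 UMIs or for MG under 0.2% mitochondrial UMIs, which had under 10 nuclei in a library.

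The labels tie no MF library to an HF library of the same number. With the replicate number as a block, 1 RP gene was called between diets in DG-i (Rplp0, −0.75, FDR = 0.0432, edgeR) and 0 in the other 9 types; the replicate differences of both diets correlated over genes with r from 0.0337 in CA1 to 0.332 in EXC, as a description.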
